A study of Homo sapiens with 17 samples.

Results

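In the human embryonic kidney line HEK293, 371 genomic positions had a pausing time of RNA polymerase below the usual value in run-on buffer without the detergent sarkosyl and above it in buffer with sarkosyl. They were selected on the pausing times themselves. Of 158141 positions listed in at least 1 of 4 deposited tables, 2967 were shared by all 4. A shared position became a member when its pausing time was below the table's median over shared sites in both sarkosyl-free tables and above it in both sarkosyl tables. The members made up 12.5% of the shared sites, and the other 2596 shared sites are the background throughout. The opposite pattern, long without and short with sarkosyl, held 367 shared sites (12.4%). A further 397 (13.4%) were short in all 4 tables and 366 (12.3%) long in all 4. The number of members is thus close to that of each other pattern and by itself shows no effect of the buffer. Since the times chose the members, their times are described below and not tested. What the rule did not use is where the sites lie, the sequence around them, and the times of sites that are missing from at least 1 table.

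The samples were permeabilised HEK293 cells run on for 0.5, 2, 8 or 32 min, either in buffer containing sarkosyl or in buffer without it, with 2 replicates of each combination and 16 libraries in all. The design text calls the replicates biological duplicates. No other agent or genotype was given for these libraries. A further sample, labelled Trp treatment, was not analysed here. Each table holds 1 buffer and 1 replicate number. Pairs of values are given in the order replicate 1, replicate 2.

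In precision run-on sequencing, polymerases already engaged on the DNA extend their RNA with labelled nucleotides, and the RNA 3′ end marks where the polymerase stood. A pausing time is the waiting time of polymerase at a position, fitted here over the run-on times. Sarkosyl removes most chromatin proteins and blocks new initiation, and engaged polymerases can still elongate. RNAs that end at a fixed position also exist in the nucleus: small nucleolar RNAs (snoRNAs) and small Cajal body RNAs (scaRNAs) are mostly trimmed out of the introns of host genes, and their 3′ ends are set by bound proteins. Box C/D snoRNAs guide ribose methylation of RNA and carry a D box near the 3′ end. Box H/ACA snoRNAs guide pseudouridylation and carry an ACA box near the 3′ end.

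The tables listed 48566 and 47713 sites with sarkosyl, and 66089 and 41769 without it. No unit of time was stated, and the tables give no depth, so the reads behind a site are unknown. Across the 2967 shared sites, which are not independent replicates, Spearman's rho was 0.76 between the sarkosyl tables, 0.37 between the sarkosyl-free tables and 0.04 to 0.07 between buffers. Among the members alone it was 0.46 and 0.08 within buffers. Both sarkosyl tables listed 0 sites on the minus strand of chromosome X, against 1410 and 1011 in the sarkosyl-free tables, so no site of that strand could be shared. Of 8 genes known to be active in HEK293, 5 held sites, led by HSPA8, ACTB, IGF2BP1 and LIN28B, while NEFM, PAX2 and HOXC10 held none. Of 8 genes of blood, liver and skeletal muscle, 1 (PTPRC) held a single site in 1 table.

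Many members lay at the 3′ end of a small structural RNA. Of the 371 members, 102 (27.5%) lay within 10 bases of the annotated 3′ end of a snoRNA, scaRNA, Y RNA, snRNA or similar gene on the same strand, against 164 of the 2596 other shared sites (6.32%). Seen from the class, 102 of 266 such ends were members (38.3%), against 12.5% of all shared sites. This class was drawn up after the members' positions were seen. In the classes planned earlier, which have none for small RNAs, the most members (178, or 48.0%) fell within 300 bp after a start, starts of small RNA genes included. The last 30 bases up to the site are shown for the ends with large margins or familiar names, because the site falls on the same feature in unrelated genes. They come from the GENCODE 29 transcripts on hg38, written 5′ to 3′ on the gene's strand. The final capital is the site itself, and the capitals before it mark an ACA or CTGA (D box) motif where there is one.
SNORA19, box H/ACA, chr10:119060011-119060040, minus strand: agtaatgctgccagtctccttcagACAaaA
SNORA73A, box H/ACA, chr1:28507542-28507571, plus strand: ctggggagacaaaccatgcaggaaACAgcC
SNORA80E, box H/ACA, chr1:155919909-155919938, minus strand: gctgtgagcactgaagggggttgcACAgtG
Telomerase RNA (annotated as RF00024), chr3:169764610-169764639, minus strand: acgtgcacccaggactcggctcacACAtgC
SCARNA12, Cajal body RNA, chr12:6967337-6967366, minus strand: agccacctgagcgcaaccttggatCTGAcA
SNORD51, box C/D, chr2:206161921-206161950, plus strand: agttcgtgatggatttgcttttttCTGAtT
SNORD3A, U3, chr17:19188203-19188232, plus strand: gtgagagggagagaacgcggtCTGAgtggT
RNU12, U12 snRNA, chr22:42615364-42615393, plus strand: gcgggatgcctgggagttgcgatctgcccG
RNY3, Y RNA, chr7:148983826-148983855, plus strand: cactcccactgcttcacttgactagccttT
RMRP, RNA of RNase MRP, chr9:35657751-35657780, minus strand: ccacacggggctcattctcagcgcggctgT
VTRNA1-1, vault RNA, chr5:140711344-140711373, plus strand: cgagacccgcgggcgctctccagtcctttT

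Among the 102 members at small RNA ends, 51 sat exactly on the last annotated base and 89 (87.3%) within 3 bases of it. The other 164 ends had the same layout, with 78 on the last base and 139 (84.8%) within 3. Of the 89 member ends with sequence, 29 (32.6%) had ACA followed by exactly 3 bases up to and including the site, as did 48 of 143 other ends (33.6%). CTGA lay within the last 12 bases at 39 member ends (43.8%) and 64 other ends (44.8%). Both motifs were searched on the transcribed strand. Away from small RNA ends, ACA at that spacing was found at 0 of 105 members with sequence and at 4 of 992 other shared sites (0.403%). At box C/D ends with a CTGA, U3 included, the site lay 2 to 5 bases after it in 33 members (median 5.0) and in 57 other sites (median 4.0). CTGA within the last 12 bases was found elsewhere at 7 of the 105 members (6.67%) and 57 of the 992 other shared sites (5.75%). Member ends and other ends thus had near-equal shares of both motifs. Their contrast with sites elsewhere follows from how the class was drawn up, since snoRNAs carry these boxes near their 3′ ends.

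**Figure D1:**
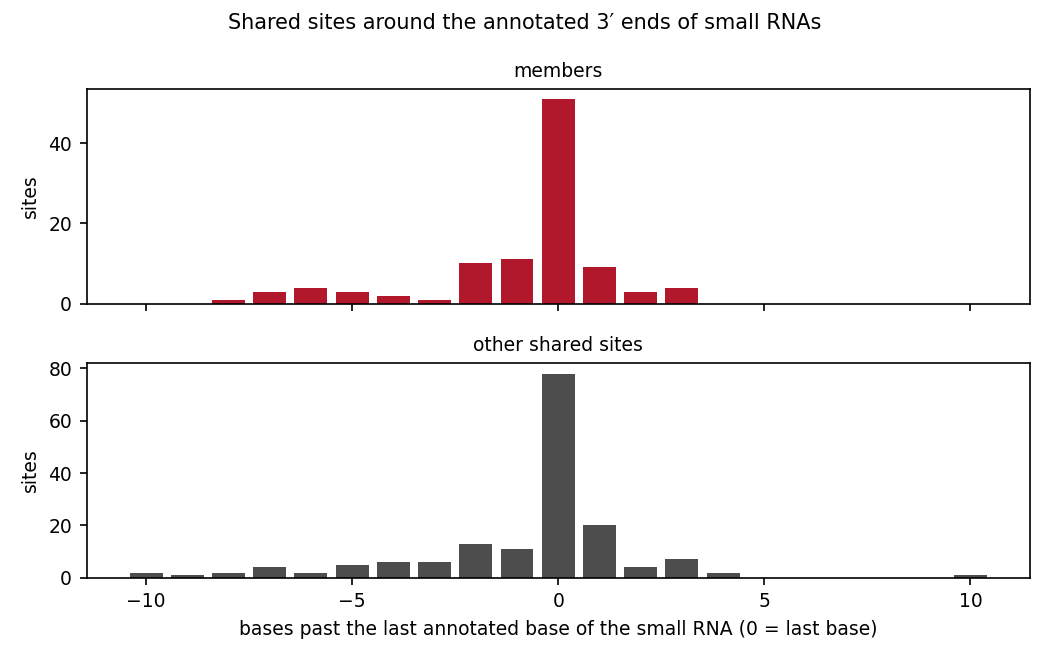
Number of shared sites (y axis) by bases past the last annotated base of a small RNA (x axis, 0 is the last base), for members above and for the other shared sites below. In both panels the tallest bar is at 0, with 51 members and 78 other sites.

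Box H/ACA snoRNAs gave 30 members of 79 shared ends (38.0%), of which 25 sat on the last annotated base. SNORA19, in an intron of the translation factor gene EIF3A, had the largest margin among small RNA ends, with times of 16.1 and 7.04 with sarkosyl and 0.45 and 0.465 without it. SNORA73A, in the RCC1 locus and a partner of ribosomal RNA processing, had 3.68 and 1.98 against 0.684 and 0.835. SNORA80E had 6.67 and 6.49 against 0.949 and 0.46. Times of all 30 H/ACA members ran from 1.23 to 16.1 and 1.28 to 7.04 with sarkosyl, and from 0.203 to 1.19 and 0.35 to 1.41 without it.

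Box C/D snoRNAs other than U3 gave 35 members of 92 shared ends (38.0%), and 7 of the 35 sat on the last annotated base. SNORD51, in an intron of the elongation factor gene EEF1B2, had times of 7.94 and 3.01 with sarkosyl against 0.525 and 0.679. The chaperone gene HSPA8 held 3 members, and each was a snoRNA end in its body: SNORD14E had 8.7 and 5.26 against 0.991 and 0.592, SNORD14D 1.7 and 1.97 against 0.691 and 1.1, and SNORD14C 1.41 and 1.56 against 0.691 and 1.25. In SNORD14E the values of the 2 buffers lay far apart, while in SNORD14C the nearest values were 1.25 and 1.41.

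U3, the abundant box C/D RNA needed for the first cleavages of ribosomal RNA, gave 5 members of 5 shared sites. Each sat on the last annotated base of SNORD3A, SNORD3B-1, SNORD3B-2, SNORD3C or SNORD3D on chromosome 17. The copies ranged from 3.8 to 4.03 and from 2.88 to 3.12 with sarkosyl, against 0.574 to 0.677 and 0.642 to 0.829. The last 30 bases of the 5 copies were 1 and the same sequence, so reads ending there cannot be told apart by copy, and the 5 sites are not independent.

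Small Cajal body RNAs, which guide modification of spliceosomal RNAs, gave 5 members of 14 shared ends. SCARNA12, in the locus of the prohibitin gene PHB2, had 4.39 and 3.64 with sarkosyl against 0.546 and 0.543 without it. The telomerase RNA, template of telomere repeats and itself carrying an H/ACA domain, had its only shared end among the members, with 2.38 and 2.22 against 0.749 and 0.978. RMRP ended at its last base with 3.55 and 2.28 against 0.668 and 0.562. In each of these 3 genes both sarkosyl values lay above both sarkosyl-free values, an order that the rule itself nearly fixes.

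RNAs made by RNA polymerase III also include, beside RMRP, the Y RNAs, vault RNAs and 7SL RNA, the RNA of the signal recognition particle. Y RNAs gave 15 members of 23 shared ends (65.2%), 11 of them at genes annotated with the Y RNA family name RF00019. RNY3 held 2 members 5 bases apart: position 148983855 had 2.53 and 1.94 with sarkosyl against 0.662 and 0.669 without it, and position 148983850 had 1.51 and 1.39 against 0.484 and 0.775. RNase MRP or P RNA and vault RNA each gave 1 member of 2 shared ends, and 7SL RNA gave 2 of 5. VTRNA1-1 had 4.57 and 2.34 against 1.21 and 0.508. Ends of VTRNA1-3, not in all 4 tables, lay above the table median without sarkosyl, at 4.758 and 5.845. With sarkosyl they lay at -0.344 in replicate 1 and at -0.038 and 0.6 in replicate 2. These VTRNA1-3 values are on the log2 scale, relative to the median of sites not in all 4 tables. The 7SL copies RN7SL3 and RN7SL364P had members 2 bases past their ends, with 3.61 and 2.7 against 1.29 and 0.341, and with 8.4 and 2.48 against 0.94 and 0.418. Many Y RNA and 7SL genes are near-identical copies, so which copy a read came from is uncertain.

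Spliceosomal snRNAs gave 1 member of 22 shared ends (4.55%). It was RNU12, the U12 RNA of the minor spliceosome, with 1.48 and 2.62 with sarkosyl against 0.738 and 0.699 without it. The second-ranked member of all, at position 42615707 of chromosome 22, lay 463 bp downstream of the RNU12 start in the noncoding gene Z93241.1, with 10.5 and 8.4 against 0.327 and 0.376.

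A site has a pattern when both replicates of a buffer fall on the same side of their medians. Of the 266 small RNA ends, 102 (38.3%) were short without and long with sarkosyl, 4 (1.5%) long without and short with it, 15 (5.64%) short in all 4 tables and 12 (4.51%) long in all 4. Of the 2701 other shared sites, 269 (9.96%) had the first pattern and 363 (13.4%) the second. Taken singly, 70.7% of small RNA ends were above the median in both sarkosyl tables, against 36.5% of other sites, and 50.8% were below it in both sarkosyl-free tables, against 29.4%. These counts use the times that chose the members and are a description.

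**Figure D2:**
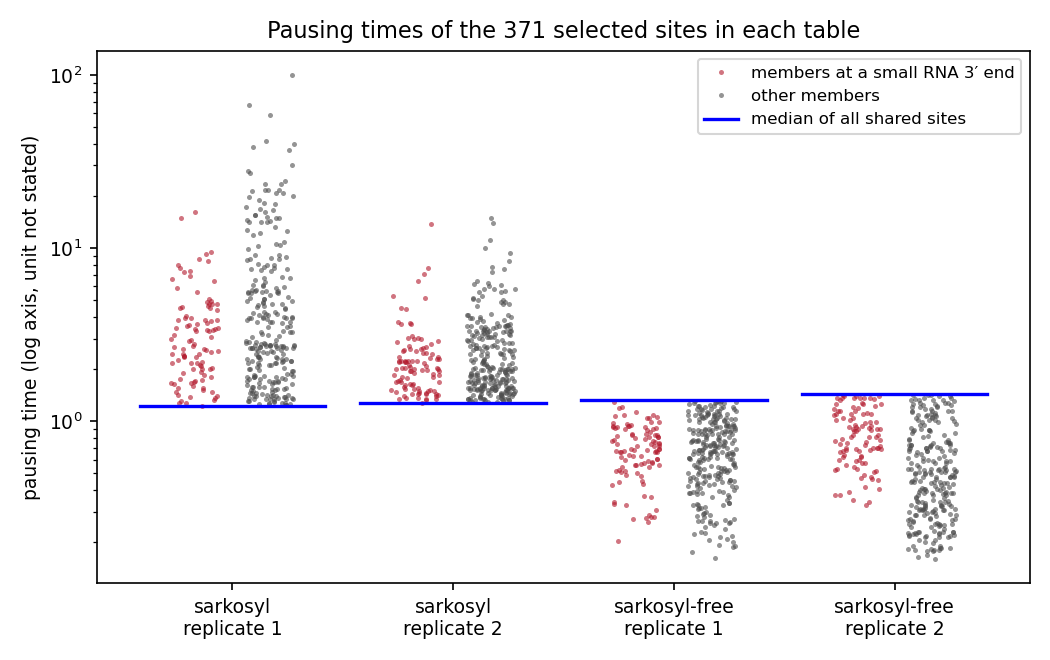
Pausing time of every member (points, log axis, unit not stated) in the 4 tables, with small RNA 3′ ends in red, other members in grey and the median of all shared sites as a blue line. By the rule, all points lie above the line in both sarkosyl tables and below it in both sarkosyl-free tables.

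Small RNA ends that are absent from at least 1 table were never candidates, so their times were not used. Some belong to RNAs that also held a member at another position, among them SCARNA12, SNORA80E, SNORD35B and RMRP. The RNAs are thus not a set separate from those of the members. The ends never used numbered 126 and 84 in the sarkosyl tables and 189 and 130 in the sarkosyl-free tables. On the log2 scale, relative to the median of all sites not in all 4 tables, their median time lay at 0.63 and 0.08 in the sarkosyl tables and at -2.08 and -2.54 in the sarkosyl-free tables. The median of all such sites differed widely between tables, at 1.52 and 1.34 with sarkosyl against 2.31 and 8.7, and these relative values depend on it. As plain times the ends had medians of 2.35 and 1.42 with sarkosyl against 0.546 and 1.5, so in replicate 2 they were not shorter without sarkosyl. Box H/ACA ends gave 0.75 and 0.21 with sarkosyl and -3.16 and -3.53 without it. Y RNA ends gave 2.12 and 0.52 against -1.41 and -3.42. Box C/D ends gave 0.01 and -0.04 with sarkosyl, that is near the table median, and -1.72 and -2.48 without it. As plain times in replicate 2, with sarkosyl against without, H/ACA ends had 1.55 against 0.75, Y RNA ends 1.93 against 0.814 and C/D ends 1.31 against 1.56. These medians rest on 14 and 33 H/ACA ends, 13 and 6 Y RNA ends and 22 and 31 C/D ends. The tables list partly different ends, so the same ends are not being compared between buffers. The scaRNA values that follow rest on 5 and 2 ends with sarkosyl and 7 and 5 without it. Relative values above the table median with sarkosyl were not general: scaRNA ends gave -0.16 and -0.37 against -3.02 and -4.15, and snRNA ends -0.52 and -0.29 against -1.38 and -1.36. Values below it without sarkosyl were also found outside small RNA ends, with -2.38 and -0.9 in transfer RNA genes, -1.27 and -1.71 in microRNA hairpins and -1.26 and -1.18 in ribosomal DNA. With sarkosyl, transfer RNA genes lay at -0.93 and -0.66, microRNA hairpins at 0.37 and -0.08 and ribosomal DNA at -0.27 and -0.48. Transfer RNA genes and ribosomal DNA were thus below the table median in both buffers.

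Counted over pairs of tables, 53 of 62 small RNA ends listed in both sarkosyl-free tables but not in all 4 were shorter than each table's median in both (85.5%), against 3364 of 10938 of all such sites (30.8%). With sarkosyl, 27 of 52 such ends listed in both tables were longer in both (51.9%), against 6146 of 15049 (40.8%). No test was made, since sites of 1 table are not replicates.

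**Figure D3:**
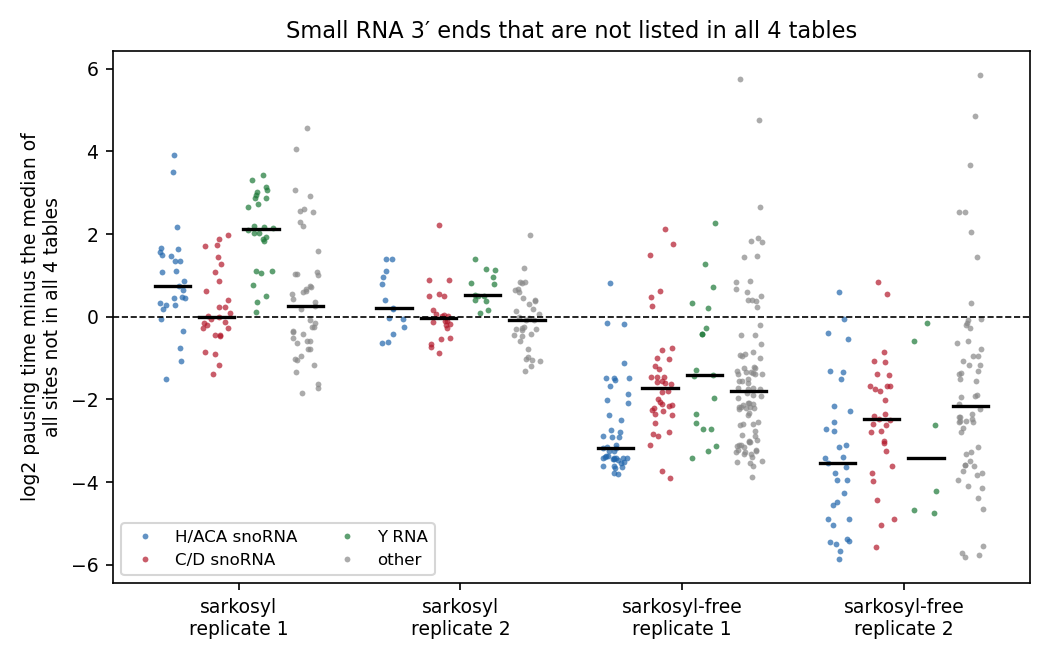
Log2 pausing time minus the table's median over sites not in all 4 tables (y axis), for small RNA 3′ ends missing from at least 1 table, by table and kind of RNA, with black bars at the medians. Points of the sarkosyl-free tables lie mostly below 0, with medians for H/ACA ends of -3.16 and -3.53.

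MicroRNA hairpins showed the same positional detail on a smaller scale. Of 19 shared sites in hairpins, 8 were members (42.1%), and 7 of these 8 sat on the last base of a mature microRNA, as did 7 of the 11 other hairpin sites. The mature sequences are from RefSeq on GRCh38.p14, with the seed (bases 2 to 8) in capitals, and they are shown because the site is the final base of each.
hsa-let-7a-5p: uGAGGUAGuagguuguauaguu
hsa-let-7b-5p: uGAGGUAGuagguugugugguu
hsa-miR-196a-5p: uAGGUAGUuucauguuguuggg
hsa-miR-92a-3p: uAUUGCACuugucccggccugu
The let-7 pair shares its seed. The let-7 family restrains growth programmes during differentiation, and the 3 let-7a hairpins, on chromosomes 9, 11 and 22, were members. let-7e, of the same family and also at its last base, was not, with 8.33 and 0.957 against 0.543 and 4.78. Times of the 3 let-7a sites ran from 3.55 to 4.17 and from 1.44 to 1.62 with sarkosyl, and from 0.578 to 1.03 and from 0.388 to 0.732 without it. let-7b had 2.77 and 1.92 against 0.69 and 0.359. Both miR-196a hairpins, which lie in HOX clusters, were members, with 2.71 and 1.33 against 1.18 and 0.639 on chromosome 12 and 3.18 and 1.49 against 0.529 and 0.54 on chromosome 17. miR-92a, of the miR-17 cluster, had 20.8 and 2.89 against 0.714 and 1.07, while miR-17 itself was no member, with 12.3 and 1.42 against 0.931 and 4.5. The mature sequence of let-7a and of miR-196a is identical between hairpins, so these sites are not independent.

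Transfer RNA genes were rarely members: 6 of 151 shared sites inside or up to 30 bp past a gene (3.97%). Of these 6, 5 lay exactly 3 bases past the gene end, as did 5 of the 145 other sites (10 sites in all). Mature transfer RNAs carry an added CCA that the gene does not encode. The 5 members were TRP-TGG3-4, TRT-AGT5-1, TRA-AGC3-1, TRS-GCT6-1 and TRC-GCA3-1, with times of 2.65 to 16.9 and 1.34 to 2.26 with sarkosyl. TRC-GCA3-1, inside ZNF767P, had 5.38 and 2.26 with sarkosyl against 0.258 and 0.303 without it. The other 5 sites at this offset missed the rule, and TRD-GTC2-6 lay below the median in all 4 tables with 0.699 and 0.88 against 0.824 and 0.678. The gene table gives no strand, so the end was taken in the direction of the site.

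Ribosomal DNA, the repeated genes of 18S, 5.8S and 28S RNA, held 21 members of 72 shared sites (29.2%), which is 5.66% of the members against 1.96% of the other shared sites. The same offsets recurred in different copies. Base 72 of the 28S gene was a member in RNA28SN1, RNA28SN2 and RNA28SN3, with 16.7 to 18.2 and 2.58 to 3.46 with sarkosyl, and 0.705 to 0.932 and 0.882 to 1.18 without it. Base 92 was a member in RNA28SN2 and RNA28SN3, and base 98 of the 18S gene in RNA18SN2 and RNA18SN3. Base 100 of the 28S gene missed the rule in RNA28SN1, RNA28SN2 and RNA28SN3. It had 13.5 to 24.4 and 3.09 to 5.13 with sarkosyl, and 1.32 to 1.96 and 1.06 to 1.3 without it. The copies are near-identical, so the 21 sites stand for fewer positions. At 28S base 72 the replicates with sarkosyl differed more from each other than the copies did.

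Mitochondrial DNA, read by its own polymerase, gave 13 members of 159 shared sites (8.18%). MT-RNR2, the large mitochondrial ribosomal RNA, held 3 members of 16 shared sites. Position 2240 had 14.1 and 5.26 with sarkosyl against 0.746 and 0.392 without it. Position 2405 had 21.7 and 3.5 against 0.84 and 0.18, and position 2389 had 1.99 and 1.59 against 1.05 and 0.225. Nuclear copies of mitochondrial DNA gave 14 of 71 (19.7%). MTRNR2L8 on chromosome 11 held 5 members of 9 shared sites and MTRNR2L12 on chromosome 3 held 3 of 10. Some members in MTRNR2L8 and MTRNR2L12 ended in the same 30 bases, so the source of these reads is uncertain.

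Members ended in recurring sequence at a higher share than other shared sites did. Of 191 members with 30 bases of transcript sequence, 37 (19.4%) had the same 30 bases as another shared site, against 74 of 1110 other shared sites (6.67%). An example outside structural RNA is the ribosomal protein gene RPL17, where a member at +54 bp shared its 30 bases with members in the pseudogenes AC113935.1 and BX679664.3. Without all sites whose 30 bases recurred, 345 sites met the rule, and 24.1% of them lay at small RNA ends against 5.62% of the others.

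**Figure D4:**
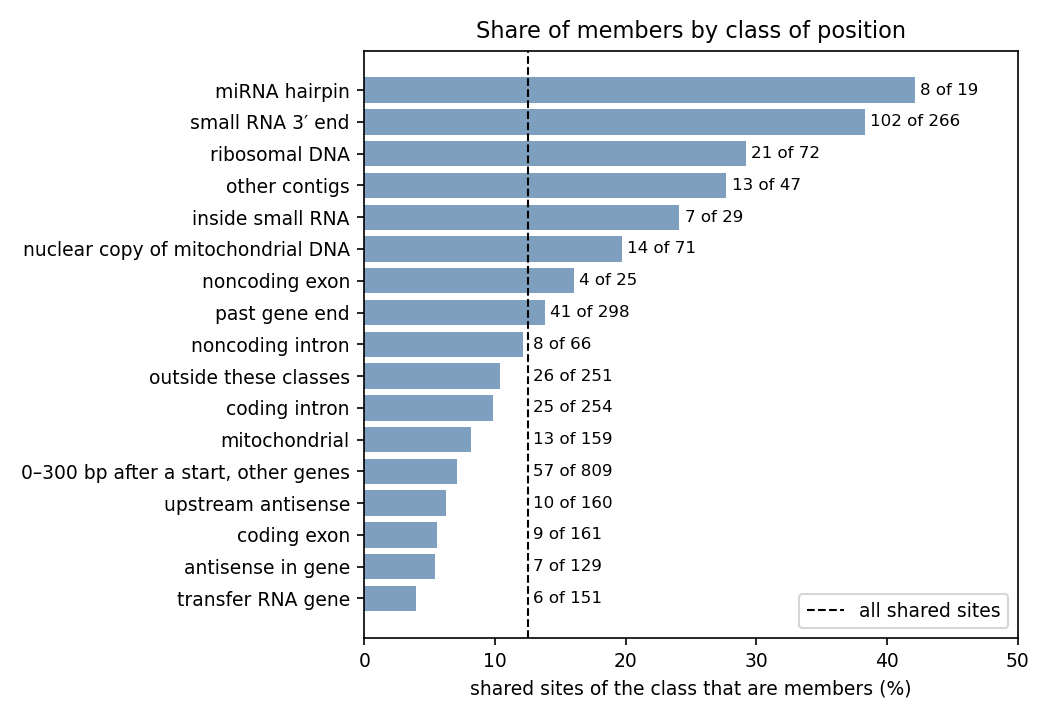
Share of the shared sites in each class of position that were members (bars, percent), with counts beside the bars and 12.5%, the share over all shared sites, as a dashed line. MicroRNA hairpins, small RNA 3′ ends and ribosomal DNA lie farthest above the line, and transfer RNA genes lie lowest.

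Promoter-proximal pausing, where polymerase II halts shortly after initiation, was not the typical place of a member. Within 300 bp downstream of any annotated start lay 178 members (48.0%), against 37.8% of the other shared sites, but small RNA genes have starts of their own. Counting starts of protein-coding genes only, the order turned: 17.8% of members against 26.8% of the others. After structural RNA sites (small RNA, microRNA, transfer RNA and ribosomal DNA) were left out, 27 of 227 members (11.9%) lay 0 to 60 bp after a coding start, against 446 of 2203 other sites (20.2%). In the next bins the shares were 5.73% and 4.77% up to 100 bp, 0.881% and 3.54% up to 200 bp, 3.52% and 1.45% up to 300 bp, and 6.61% and 3.68% up to 1000 bp. The members' share was the lower one in the first 60 bp and between 100 and 200 bp. Over starts of any gene, with all sites counted, 19.4% of members and 10.2% of the others lay over 100 and up to 300 bp downstream, and over coding starts 5.39% and 5.01%.

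**Figure D5:**
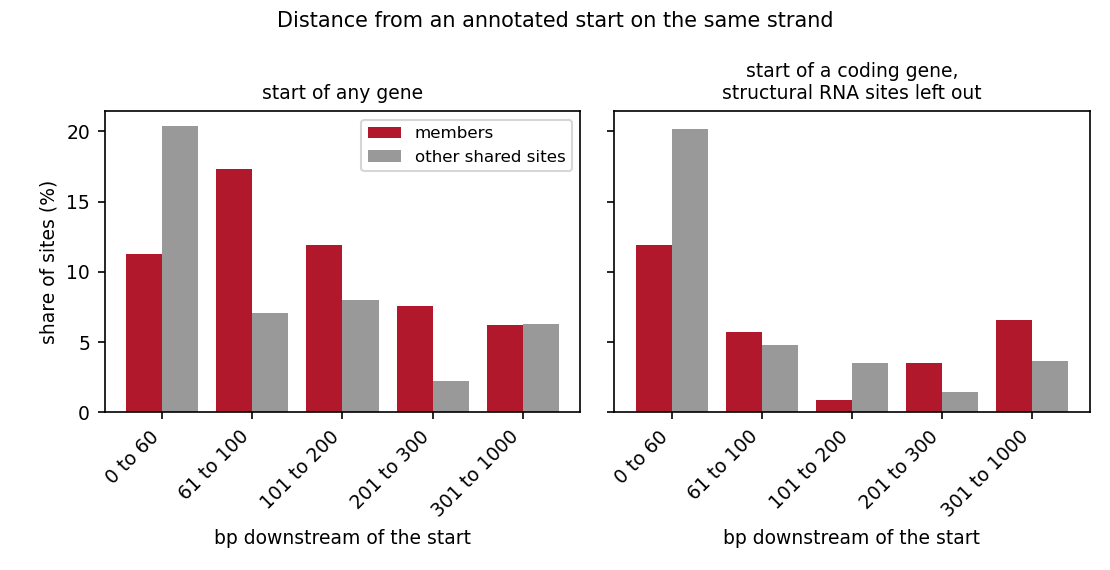
Share of members (red) and of other shared sites (grey) by distance downstream of an annotated start on the same strand, for starts of any gene (left) and for coding starts with structural RNA sites left out (right). At 0 to 60 bp the members' share is 11.3% against 20.4% on the left and 11.9% against 20.2% on the right.

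Outside structural RNA and nuclear copies of mitochondrial DNA, 57 members lay within 300 bp of a start, or 7.05% of the 809 shared sites there. The 4 with the largest margins were at coding genes. DONSON, a factor of the replication fork, had a member 60 bp after its start at chr21:33588574 with 5.59 and 3.66 with sarkosyl against 0.335 and 0.218 without it. HNRNPAB, an RNA-binding protein gene, had a member 20 bp after its start with 6.54 and 3.52 against 0.444 and 0.408. CYB561A3, a membrane reductase gene, had a member at 46 bp with 3.73 and 3.14 against 0.222 and 0.376. SRA1 had a member at 239 bp with 3.97 and 3.01 against 0.397 and 0.338. SRSF1, a splicing factor gene, had the longest time of any member in sarkosyl replicate 2, with 9.17 and 14.9 against 0.829 and 0.3 at 78 bp after its start. All 5 members lay in exons.

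Past gene ends, within 5000 bp on the same strand, lay 41 members (11.1%), against 9.9% of the others. The first-ranked member of all was of this class: position 201463293 on the minus strand of chromosome 1, 1090 bp past the end of the noncoding gene AC096677.2, had 5.21 and 4.9 with sarkosyl against 0.228 and 0.23 without it. A further member at 201463759, 624 bp past the same gene end, had 2.71 and 3.5 against 0.615 and 0.298. Position 1237670 of chromosome 1, 2629 bp past B3GALT6, a glycosyltransferase gene, had 3.73 and 3.57 against 0.244 and 0.255. Position 59906543 of chromosome 18, 2237 bp past PMAIP1, the gene of the apoptosis factor NOXA, had 2.72 and 3.91 against 0.546 and 0.16, the shortest time of a member in sarkosyl-free replicate 2. At 201463293 and 1237670 the replicates were nearly equal within each buffer.

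Introns of coding genes held 70 members (18.9%) against 14.8% of the other shared sites when small RNAs and starts inside them were counted in. Inside coding genes, introns held 25 members (6.74%) and exons 9 (2.43%) after the classes above were taken out, against 8.82% and 5.86% of the others. ADAMTS1, a secreted metalloprotease gene, held the third-ranked member in an intron 10 bp from a 5′ splice site, at chr21:26841848, with 4.5 and 9.35 with sarkosyl against 0.366 and 0.23 without it. RPL38 held the shortest member of sarkosyl-free replicate 1, 0.163, in an exon. Upstream antisense sites gave 10 of 160 (6.25%) and antisense sites within genes 7 of 129 (5.43%). Among the latter, position 123694961 of chromosome X, opposite THOC2, had 8.06 and 3.06 against 0.283 and 0.496, and position 153334409 of chromosome 4, opposite TRIM2, had 10.3 and 2.93 against 0.583 and 0.485. RNA5SP370, a 5S ribosomal pseudogene opposite NFYB on chromosome 12, held a member with 40.0 and 3.33 against 0.337 and 0.307, so its sarkosyl replicates were far apart. The noncoding gene AC024563.1 on chromosome 19 held, in an intron, the longest time of any member, 100 and 4.98 with sarkosyl against 1.17 and 0.406.

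A stretch of chromosome 5 held 17 members on the minus strand between 8317436 and 8334539, a span of 17104 bp, and 15 of them lay outside annotated genes. In the surrounding window from 8300000 to 8350000, 68 sites were shared on that strand, so 25% were members. The tables listed 355 and 372 sites there with sarkosyl and 240 and 261 without it, and 0 sites on the plus strand in any table. Their median times were 2.23 and 1.93 with sarkosyl against 0.506 and 0.272, beside 1.5 and 1.31 against 1.11 and 0.675 for all 68 shared sites. The largest margin was at 8318537, the fifteenth-ranked member, with 14.9 and 2.83 against 0.451 and 0.267. The stretch reaches into LINC02226, a noncoding gene annotated from 8333481 to 8457558, which held 2 members.

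Members in some of the housekeeping gene lists lay mostly in the small RNAs the genes host. Cytosolic ribosomal protein genes held 23 members of 130 shared sites (17.7%), and 16 of the 23 were inside or at the end of a small RNA. Those outside small RNAs included RPL36, 277 bp after its start with 7.46 and 2.92 with sarkosyl against 0.683 and 0.189 without it, and RPS15A, in an intron with 9.09 and 2.26 against 0.396 and 0.383. Translation factor genes held 5 of 40 (12.5%), all 5 in small RNAs. Polymerase III RNAs held 10 of 19 (52.6%), and small nucleolar RNA host genes 6 of 32 (18.8%). GAS5, a host gene, held 3 members outside annotated small RNA genes, though 2 of them had CTGA followed by 2 bases up to the site, a spacing also seen at box C/D ends. The one 11 bp after a start had 8.62 and 2.67 against 0.762 and 1.27.

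Most other lists held a share below the 12.5% of all shared sites. Heat shock and chaperone genes held 3 of 16, the HSPA8 snoRNA ends given above. Zinc finger genes held 5 members of 50, hnRNP genes 2 of 24, replication-dependent histones 2 of 33, snRNA genes 2 of 28, SR factors 1 of 10 and proteasome genes 1 of 6. HIST1H4E had 4.22 and 1.66 with sarkosyl against 0.965 and 0.545 without it. PSMD3 had 1.37 and 2.75 against 0.459 and 0.237. Immediate early factors held 0 of 13, elongation and pausing factors 0 of 6, nuclear oxidative phosphorylation genes 0 of 8, and actin, tubulin and vimentin genes 0 of 2. Lists of this size cannot show that members are absent from them.

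At the edge of the rule, the 3 members with the smallest margins were SNORA73B with 1.282 in sarkosyl replicate 2 (median 1.277), GAS5 at 173866636 with 1.422 in sarkosyl-free replicate 2 (median 1.429), and a site on an alternate contig of chromosome 6 with 1.42 in the same table. The 3 nearest sites outside equalled the median of 1 table: a ribosomal DNA site on chromosome 21 with 1.316, an upstream antisense site on chromosome 11 with 1.277, and a site in ZNF227 with 1.218. In all, 595 sites missed the rule in 1 table only. Deposited uncertainty depended on the measure. The ratio of the upper to the lower quartile of the rate had a median of 3.02 and 4.02 in the sarkosyl tables and 4.76 and 3.73 in the others, each above the 2.66, 3.16, 3.61 and 3.06 of the other shared sites. The SD over the mean of the rate had a median of 1.02 and 1.03 for members with sarkosyl, above the 0.752 and 0.827 of the others, and 1.49 and 1.39 without sarkosyl, below their 1.85 and 1.5.

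Beside these descriptions, limma over all 2967 shared sites called 0 sites different between buffers at an adjusted p of 0.05 (0.0%), and 689 (23.2%) had an unadjusted p under 0.05. The rule used this contrast, so nothing is read from it for the members. With the replicate number as a block limma called 161 sites. Fits without 1 table left a single table in 1 buffer. No spread within that buffer was measured, so their calls are not given.

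Which sites a table lists near a member was not used by the rule. Another listed site lay within 50 bp on the same strand for 43.9% and 44.5% of the members with sarkosyl, and for 50.9% and 41.8% without it. The difference of the means, sarkosyl minus sarkosyl-free, was -2.16 percentage points, smaller than the spread between the sarkosyl-free replicates (two-sided exact permutation test over 4 tables, p = 1.0, with 0.33 the smallest p this design allows). The other shared sites had such a neighbour more often, in 57.0% and 55.9% with sarkosyl and 55.6% and 47.3% without it. Of sites 1 to 10 bp from a member and not in all 4 tables, the median log2 time, less that near other shared sites, came to 1.08 and 0.19 in the sarkosyl tables and to -0.26 and -1.69 in the sarkosyl-free tables. With neighbours of small RNA ends left out it was 1.03 and 0.18 against -0.12 and -1.69. From 11 to 50 bp the values were 0.2 and 0.11 against 0.49 and -1.11, so the sarkosyl-free replicates differed in sign from each other. Over 50 and up to 200 bp they were -0.07 and -0.05 against -0.12 and -0.83. Over 200 and up to 1000 bp they were -0.34 and -0.1 against -0.37 and -1.1. The negative difference in sarkosyl-free replicate 2 was thus not confined to close neighbours.

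The share at small RNA ends depended on the thresholds. With tertiles in place of medians, 78 sites met the rule, and 10 of them (12.8%) were small RNA ends, against 8.86% of the others. Over shared sites whose quartile ratio was below the median in at least 3 tables, 16 of 87 members were such ends (18.4%), against 3.56%.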

How the data were processed

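Time-variant precision run-on sequencing libraries of HEK293 cells had been reduced by the authors to 4 tables, 1 per buffer and replicate number. Per the file headers, each row of a deposited table gives a position, a strand, and fitted scores: an estimate (mean, SD, error of the sampling, median, quartiles) and a pausing time. The deposited pausing time score equals the reciprocal of the deposited median in every row, so that median is called the rate. The submitters' processing notes name cutadapt 1.14, HISAT2 2.1.0, SAMtools, bedtools and the build hg38. The model, the calling of sites and the handling of reads that map to several copies were not given in the sources used here. The tables hold no read numbers. The number of value columns without a group was 0.

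Sites were matched by position and strand and annotated with GENCODE 29 on the same build, transfer RNA and ribosomal RNA genes and microRNAs with RefSeq tables (GRCh38.p14). Small RNA ends fell exactly on annotated last bases, so positions were read as 1-based. No genome sequence was used, so base composition around all sites, as planned, was restricted to sites in annotated transcripts.

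The members, lists and tests were chosen with earlier results of these data known. The class of small RNA 3′ ends, those of ribosomal DNA, microRNA hairpins, transfer RNA genes and nuclear mitochondrial copies, and the chromosome 5 stretch were drawn up after the members were seen, and so were the alternatives without recurring sequence or ribosomal DNA. Named sites were the 15 members of largest margin (the smallest distance of log2 time from the table median over the 4 tables), the 3 nearest on each side of the threshold, genes with at least 3 members, up to 3 members per gene list, and the extremes of each table. Some named sites are not reported here. Small RNAs shown as examples beyond these were chosen after their values were seen. limma 3.58.1 (lmFit, eBayes, Benjamini-Hochberg, threshold 0.05) in R 4.3.3 was fitted on log2 times centred per table. Its check on simulated data required recovery only of a large change at a spread smaller than the observed one. Recovery at the observed spread is not reported here. Python 3.11.15, pandas 2.3.3, scipy 1.17.1 and matplotlib 3.10.9 did the rest. p-values measure the spread between these tables.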

Additional observations from a re-analysis of the deposited data

Results flagged for a closer look

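In each result below the values of both sarkosyl tables lay above 0 and those of both sarkosyl-free tables below it. The differences were not tested. Values are medians of log2 pausing time relative to the median of sites not in all 4 tables. For neighbours the value is a difference of such medians. Sarkosyl comes first, in the order replicate 1, replicate 2.

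Small RNA 3′ ends missing from at least 1 table, some of them at RNAs that also held a member, lay at 0.63 and 0.08 against -2.08 and -2.54. The reference median was 8.7 in sarkosyl-free replicate 2 and 1.34 in sarkosyl replicate 2, and as plain times the medians of these ends there were 1.5 and 1.42. Those on the last annotated base lay at 0.64 and 0.22 against -1.49 and -2.4, with plain times in replicate 2 of 1.57 with sarkosyl and 1.64 without. Box H/ACA ends lay at 0.75 and 0.21 against -3.16 and -3.53, and Y RNA ends at 2.12 and 0.52 against -1.41 and -3.42. The H/ACA values rest on 27 and 14 against 44 and 33 ends, the Y RNA values on 26 and 13 against 19 and 6. Each table lists partly different ends. Sites over 100 and up to 300 bp after a coding start, outside small, transfer and micro RNA, lay at 0.64 and 0.14 against -0.08 and -0.04, and 48.9% of the sites were above the reference in each sarkosyl-free table, so these tables barely moved.

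The median of neighbours 1 to 10 bp from a member, less that near other shared sites, came to 1.08 and 0.19 against -0.26 and -1.69. Near members alone the medians were 0.55 and -0.11 against -0.59 and -2.87, so sarkosyl replicate 2 lay below 0. In sarkosyl-free replicate 2 the difference was also negative farther out, at -1.11 from 11 to 50 bp. It was -0.83 over 50 and up to 200 bp and -1.1 over 200 and up to 1000 bp. Its value at 1 to 10 bp is thus not specific to close neighbours.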

How the results depend on the processing

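The rule gave 601 members with medians over all sites of a table, 78 with tertiles in place of medians, 87 over sites with narrow deposited quartiles, and 442 to 617 when 1 table was left out. The share within 300 bp of a start (48.0%) turned below that of the other sites with tertiles (33.3% against 39.2%) and with coding starts only (17.8% against 26.8%). It moved to 54.4% on chromosomes 1 to 22 and X, to 54.7% with 1 site per 1 kb, to 41.4% over sites with narrow quartiles, and to between 42.4% and 49.6% without 1 table. The share over 100 and up to 300 bp from a start (19.4% against 10.2% of the other sites) moved to 14.1% against 11.3% with tertiles, 12.6% against 7.01% with narrow quartiles, and 5.39% against 5.01%, near the background, with coding starts only. The share in coding introns (18.9% against 14.8%) moved to 13.8% against 10.8% with narrow quartiles and to 25.1% against 18.8% with introns of any gene. It was below that of the others (6.74% against 8.82%) after the classes drawn up later were taken out. The share at small RNA ends (27.5%) moved to 12.8% with tertiles, 18.4% with narrow quartiles and 13.7% on the last annotated base only, and ranged from 20.2% to 26.7% without 1 table, above that of the other sites in every alternative run. Limma's 0 calls became 158 with quantile normalization, 231 with normal scores, 161 with the replicate block, and 0 to 1597 without 1 table. The neighbour difference of -2.16 points changed sign with windows of 10 bp (2.83) and 200 bp (1.48), and ranged from -6.74 to 2.43 without 1 table. The causes were not tested.

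The labels pair the tables by number only. Same-numbered tables had deviations from the buffer means that correlated at 0.01, so the numbers were not taken as pairs. With the replicate block the neighbour difference was -2.16 points.

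Depth is unknown, replicates without sarkosyl agreed poorly, and the rates are rounded to 3 decimals, which limits long times.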
